A study of Mus musculus with 23 samples.

Results

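The 10 genes described here are mouse selenoprotein genes: Selenow, Selenof, Selenok, Selenom, Selenos, Selenot, Selenop, the glutathione peroxidases Gpx1 and Gpx4, and the thioredoxin reductase Txnrd1. They were taken by name from the 55487 Ensembl gene IDs of the count tables, and the set was drawn up because Selenow was counted in every axonal library and tended to be lower there with stretch. The axonal levels and the stretch difference of Selenow in axons therefore chose the set and are given as a description only. Neurons from hippocampi of C57Bl/6 pups at postnatal day 1 were grown in microfluidic chambers, where axons extend through channels and can be collected apart from the cell bodies. The growth medium of all 4 groups held magnetic nanoparticles (MNPs) at 5 µg/ml. Control axon (n = 5) and control soma (n = 6) libraries came from cultures under a null magnetic gradient. Stretched axon (n = 6) and stretched soma (n = 6) libraries came from cultures under a gradient of 50 T/m, which pulled on the particles between DIV 1 and DIV 6 (DIV, days in vitro). The labels call the axonal samples a pure axonal preparation and the soma samples a total cell culture, so a soma library can hold RNA of every cell type seeded. The labels do not say whether libraries of one group came from separate animals or cultures, so the p-values below measure the spread between libraries, which may be technical.

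Selenoproteins carry selenocysteine, an amino acid with selenium in place of the sulfur of cysteine. It is inserted at a TGA codon that would otherwise end translation, with the help of a stem-loop in the untranslated tail of the messenger RNA and a dedicated elongation factor. In most members with a known activity the selenocysteine sits in the active site of a redox enzyme. Selenow is a small cytosolic protein with a thioredoxin-like fold that is abundant in muscle and brain. Neurons take up selenium largely as the secreted carrier Selenop, and neurons without Gpx4 die by lipid peroxidation.

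The TGA codon that is read as selenocysteine defines the group and also fixes where the reactive residue lies in each protein, so it is shown in capitals below within its spliced coding sequence. The sequences come from the mouse GENCODE vM21 annotation on GRCm38, the assembly also called mm10. Up to 12 bases stand on either side of the codon, and a shorter right side ends at the stop codon.
Selenow: tattgtggagctTGAggctataagccc
Selenom: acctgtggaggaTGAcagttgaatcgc
Selenot: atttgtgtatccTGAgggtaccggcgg
Selenof: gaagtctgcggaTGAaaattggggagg
Gpx1: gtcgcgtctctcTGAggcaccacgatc
Gpx4: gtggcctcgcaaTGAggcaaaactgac
Selenop, the first of its 10 TGA codons: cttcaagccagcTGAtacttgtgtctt
Txnrd1: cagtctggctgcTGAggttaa
Selenok: atggctggtggaTGAggaaggtaa
Selenos: tcatctggcggcTGAaactaa
The annotation lists each of these codons as selenocysteine. It lists 24 genes with such a codon in all, of which 10 are the genes described here and 14 are other selenoproteins. In Selenow the codon is number 13 of 88, in exon 2 of 6, at chr7:15920464-15920466 on the minus strand. A TGT codon for cysteine stands 3 codons before the TGA in Selenow, Selenom and Selenot, the spacing of the active pair of a thioredoxin fold. In Txnrd1 a cysteine codon directly precedes the TGA, which is codon 498 of 499. Selenos (codon 189 of 190) and Selenok (codon 92 of 94) also carry selenocysteine at the very end of the protein, whereas it lies inside the protein in Selenom (codon 48 of 145), Selenot (49 of 195), Selenof (93 of 162), Gpx1 (47 of 201) and Gpx4 (129 of 253). Selenop differs from the other members in having 10 in-frame TGA codons among 380, the first at codon 59 and the other 9 in exon 5.

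Levels are given as CPM, which is counts per 1000000 counts of a library, from libraries of 16369153 to 43048953 counts. A floor of 3 counts, used as the limit of detection, corresponded to 0.0697 to 0.183 CPM and covers counting error only, because amplified reads are not independent molecules. Axonal libraries held 4263 to 10242 genes with a count and soma libraries 22452 to 24575. Each of the 8 neuron markers was above the floor in some control and some stretched axon library. Of the 8, 4 were above it in all control axon libraries and 3 in all stretched ones. Syt1, for example, was above it in 2 of 5 control and 2 of 6 stretched axon libraries. The summed level of the 8 was 1283 to 4385 CPM in control axons and 2314 to 3958 CPM in stretched axons, against 5417 to 6827 CPM in soma. Astrocyte markers were also present in the samples labelled pure axonal: their summed level was 3978 to 21496 CPM in control axons (median 17035) and 4053 to 19757 CPM in stretched axons (median 7248). The astrocyte intermediate filament gene Gfap was above the floor in all 11 axonal libraries. Of the 8 astrocyte markers, 3 were above it in all control axon libraries and 1 in all stretched ones. Soma libraries held 4771 to 12976 CPM of the same 8 astrocyte markers. Of the 7 microglia markers, 5 were at 0 in every control axon library and P2ry12 was at 0 in every stretched one, but Tmem119 and C1qb reached 363 and 131 CPM in control axons and 5 of the 7 were above the floor in some stretched axon library. Their summed level had a median of 0 and a highest value of 494 CPM in control axons and of 0.0557 and 401 CPM in stretched axons, against at most 75.7 CPM in soma. Of the 7 oligodendrocyte lineage markers, Cspg4, Olig2 and Sox10 were at 0 in every axonal library. Where markers move with a result below, their part in it was not tested. In these bulk libraries, fewer cells or axons of a type and less RNA per cell cannot be told apart.

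Selenow had the highest level per transcript length of the 10 genes in all 4 groups. It lies at chr7:15917208-15922402 on the minus strand, and its longest annotated transcript has 736 bases. In the control axon libraries numbered 1, 2, 3, 5 and 7 its level was 6070.4, 3592, 7076, 2536 and 5126 CPM. In the 6 stretched axon libraries the lowest level was 1528 CPM, the median 2242 and the highest 4834. By its mean CPM over the 11 axonal libraries, not corrected for length, it ranked 11 among all genes, so it was among the most counted transcripts there. Control soma libraries ranged from 1172 to 1491 CPM with a median of 1287, and stretched soma libraries from 1008 to 1247 CPM with a median of 1088. In soma its rank was 60, and the soma values were closer to each other than the axonal ones.

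**Figure D1:**
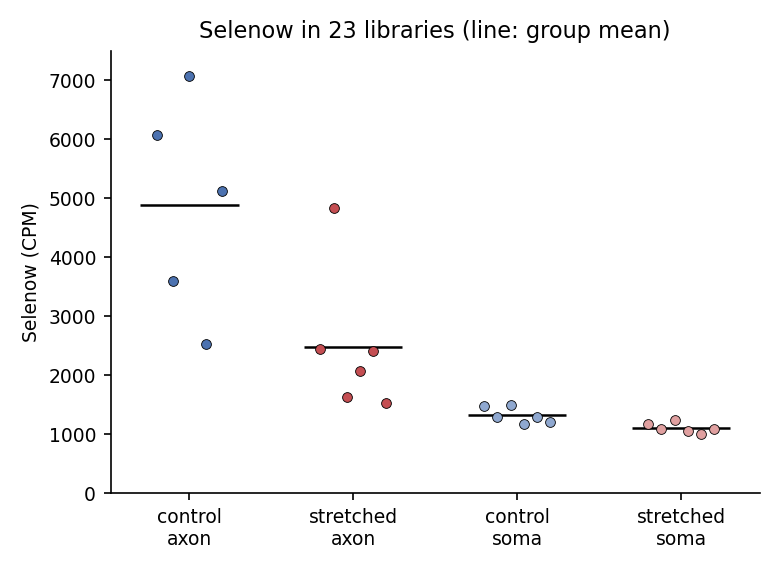
Level of Selenow in CPM (linear axis) in each of the 23 libraries, by group, with the group mean as a line. All 11 axonal libraries lie above the highest soma library at 1491 CPM, and control and stretched axons overlap.

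The group means of Selenow fell in the order control axon (4880.2 ± 1834 CPM, SD, n = 5), stretched axon (2485 ± 1212, SD, n = 6), control soma (1322 ± 134, SD, n = 6) and stretched soma (1111 ± 85.3, SD, n = 6). Control and stretched axons overlapped, and so did control and stretched soma. The lowest axonal value, 1528 CPM, stood just above the highest soma value, 1491 CPM. The ratio of axonal to soma mean CPM was 3.69 in control and 2.24 in stretched cultures. These CPM are scaled by total counts only. With scaling by the trimmed mean of M-values the fitted ratios were 3.07 and 1.56. The small gap between the lowest axonal and the highest soma value may therefore depend on the scaling. No test is given for these differences, because the gene was chosen on them. Divided by transcript length, the Selenow level was 6631 CPM per kilobase in control axons and 1796 in control soma.

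The length used for this is that of the annotated coding transcript. For Selenof and Selenom it is 1514 and 707 bases and the longest transcript has 2699 and 1478 bases, so their length-corrected levels depend on which transcript was present. On this scale the other genes in control axons were Gpx4 at 523 CPM per kilobase, Selenof at 404.5 (227 by its longest transcript), Selenom at 315 (151 by its longest), Selenok at 304, Gpx1 at 222 and Selenos at 179. In stretched axons Selenok was at 390.4 and Gpx4 at 370.3 CPM per kilobase. In control soma Selenof was at 289.7 CPM per kilobase (162 by its longest transcript), Selenom at 226 (108), Selenok at 208 and Gpx4 at 206. Selenow was thus above the other 9 by either length in all 4 groups, whereas the order of Selenof and Selenom among the others changed with the length used. Txnrd1, Selenop and Selenot were the lowest of the 10 in control soma, between 12.5 and 16.8 CPM per kilobase.

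Detection in axons separated the 10 genes. Selenow, Selenok, Selenof, Gpx1 and Gpx4 were above 3 counts in all 11 axonal libraries, Selenom and Selenos in 10, Txnrd1 in 9, Selenot in 4 and Selenop in 2. All 10 were above the floor in all 12 soma libraries. Among all genes averaging 100 CPM or more in soma, 552 of 2367 (23.3%) were above the floor in every axonal library, and among those from 10 to 100 CPM 133 of 7162 (1.86%) were. Selenow, Selenok, Selenof and Gpx4 belong to the first class, with soma means of 1217, 334, 430.0 and 180.0 CPM. Selenow was chosen for being counted in every axonal library. Selenom and Selenos are in that class too, at 150.3 and 100.8 CPM, and each was above the floor in 10 axonal libraries. Gpx1 is in the second, at 82.3 CPM in soma, and so are Txnrd1, Selenot and Selenop, which were not above the floor in every axonal library. Of the 14 other selenoproteins, Selenoh, a small nucleolar redox protein, was the one found in all 11 axonal libraries, from 12.3 to 296 CPM with a soma mean of 77.7 CPM. Dio1, Dio3, Gpx2 and Selenov were above the floor in no axonal library, and the remaining 9 were found in 1 to 7.

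**Figure D2:**
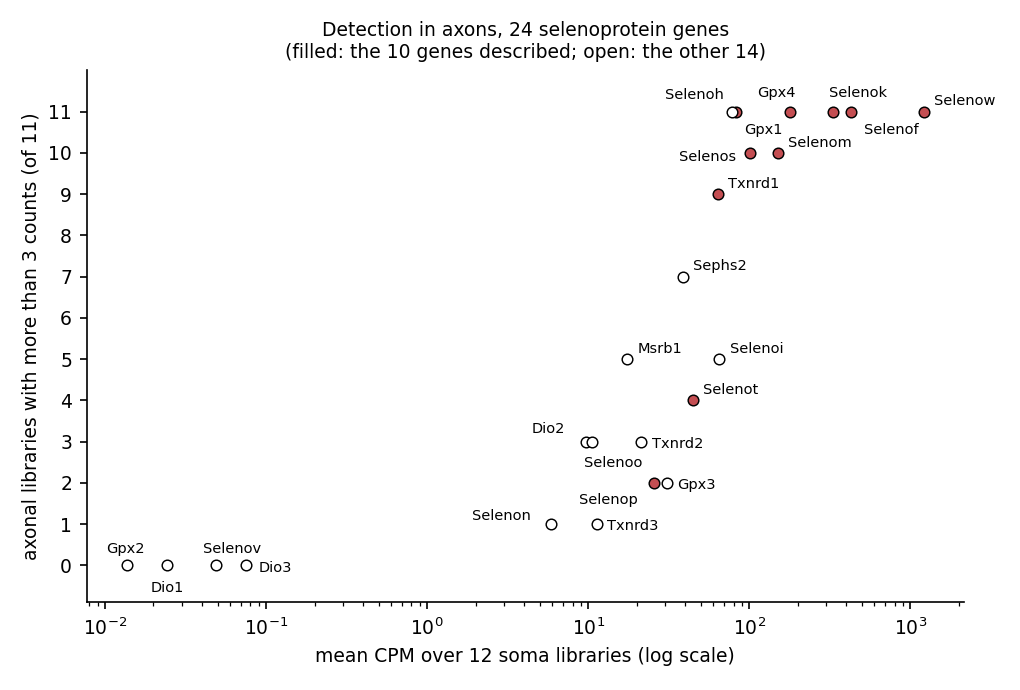
Number of the 11 axonal libraries with more than 3 counts (vertical axis) against the mean CPM over 12 soma libraries (horizontal, log scale) for the 24 genes annotated with selenocysteine, the 10 described genes filled and the other 14 open. Selenow, Selenok, Selenof, Gpx1, Gpx4 and Selenoh reach 11 libraries, while Selenot reaches 4 and Selenop 2.

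Of the members in the endoplasmic reticulum, Selenof and Selenok were above the floor in every axonal library. Selenof (chr3:144570304-144597680, plus strand) is a protein of the lumen that binds the glycoprotein folding sensor UGGT. Its control axon levels were 429, 652, 1092, 591 and 298 CPM, its stretched axon levels 362 to 785 CPM with a median of 463, and its soma levels 380.4 to 483 CPM over both groups. Selenok (chr14:29968308-29975662, plus strand) is a membrane protein of the degradation pathway and a partner of the acyltransferase Zdhhc6. Selenok was at 664, 533, 413, 573 and 365 CPM in control axons, at 449 to 939 CPM with a median of 641 in stretched axons, at 299.99 to 382 CPM in control soma and at 277 to 359 CPM in stretched soma. In stretched cultures every axonal value of Selenok was above every soma value, whereas in control cultures the groups overlapped. Transcripts similar to Selenok at 95.1% to 98.3% identity over 280 to 404 bases belong to Gm48228 and to 4 pseudogenes (Selenok-ps5, ps6, ps7 and ps8), so its counts are uncertain.

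Selenom (chr11:3514684-3517351, plus strand), a thioredoxin-like protein of the lumen, was at 149.7, 184, 165, 149 and 465 CPM in control axons. In stretched axons its lowest value was 0.0763 CPM, which is 2 counts, the median 98.4 and the highest 239 CPM. Control soma ranged from 140.1 to 203 CPM and stretched soma from 129 to 157 CPM. Soma values of Selenom thus lay within a narrow band while axonal ones scattered on both sides of it. Selenos (chr7:66079649-66089405, plus strand) links the degradation machinery of the membrane to the ATPase VCP. It was at 722, 0, 244, 101 and 1.75 CPM in control axons, at 110.2 to 423 CPM with a median of 235 in stretched axons, at 86.7 to 144 CPM in control soma and at 77.6 to 99.7 CPM in stretched soma. One control axon library had no count of it, while all 6 stretched axon libraries were above every stretched soma library.

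Selenot and Selenop were rare in axons. Selenot (chr3:58576636-58593133, plus strand) is a thioredoxin-like membrane protein of the endoplasmic reticulum. In control axons it had 9 counts (0.501 CPM) in library 1, 1 count (0.0232 CPM) in library 5 and 0 in the other 3. Stretched axon libraries 5, 6 and 8 held 212, 152 and 39.4 CPM, and the other 3 held 0. Soma libraries held 34.3 to 44.5 CPM in the control and 42.1 to 58.4 CPM in the stretched group. Selenop (chr15:3268547-3280508, plus strand), the selenium carrier, was at 0 in all 5 control axon libraries and, in stretched axons, at 181 CPM in library 6, 163 CPM in library 8, 0.0381 CPM (1 count) in library 1 and 0 in the other 3. Its soma levels were 18.6 to 48.7 CPM in the control and 16.7 to 31.3 CPM in the stretched group. The stretched axon libraries 5, 6 and 8 had the most genes with a count in their group (6405, 7012 and 10065), and control axon library 5, with 10242 genes, had 1 count of Selenot and none of Selenop. The part of the number of genes found in these patterns was not tested. The exons of Selenop overlap those of Ccdc152 on the other strand by 439 bases. Strand use in the counting is not given in the sources used here, so reads of this stretch cannot be told apart.

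The peroxidases and the reductase differed in how steady their axonal levels were. Gpx4 (chr10:80047166-80056439, plus strand) was at 612, 375, 617, 408 and 587.5 CPM in control axons and at 210.4 to 527 CPM with a median of 386 in stretched axons. Its soma levels were 165 to 229 CPM in the control and 132 to 165 CPM in the stretched group, so every axonal value lay above every soma value of the same condition. Transcripts of Gpx4-ps2 (99.7% identity over 733 bases) and AC122253.3 (95.1% over 510.0 bases) resemble Gpx4, so its counts are uncertain. Gpx1 (chr9:108338903-108340343, plus strand), the cytosolic enzyme that reduces hydrogen peroxide, was at 310.5, 145, 422, 96.6 and 214 CPM in control axons and at 14.8 to 530.4 CPM with a median of 249 in stretched axons. Gpx1 soma levels were 65.1 to 135 CPM in the control and 45.6 to 81.8 CPM in the stretched group. Its axonal values spanned a ratio of 35.9 between the highest and the lowest library, against 2.93 for Gpx4. Txnrd1 (chr10:82833951-82897712, plus strand), which keeps cytosolic thioredoxin reduced, was at 0, 0.0499, 202, 77.9 and 7.42 CPM in control axons, where the second value is 1 count. In stretched axons it was at 75.6 to 580.0 CPM with a median of 397, and in soma at 44.5 to 76.1 CPM in the control and 41.2 to 103 CPM in the stretched group. Txnrd1 overlaps Eid3 on the same strand and Gm38560 and Gm47073 on the other, so its counts carry that uncertainty.

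**Figure D3:**
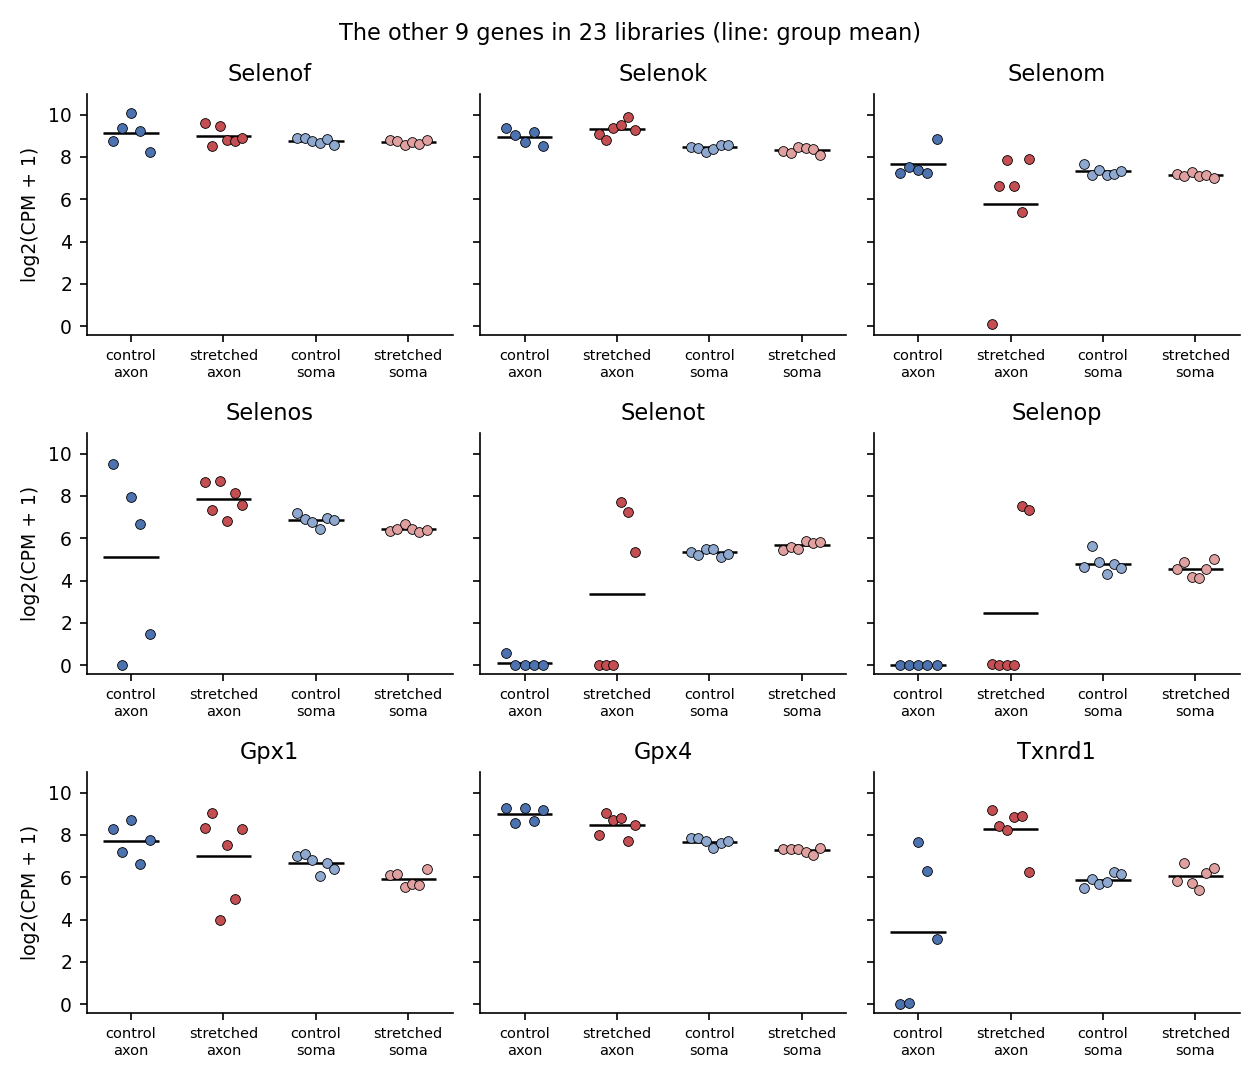
Levels of the other 9 genes as log2(CPM + 1) in each of the 23 libraries, by group, with the group mean of the log2 values as a line. Soma libraries form narrow bands, while axonal libraries of Selenos, Selenot, Selenop and Txnrd1 spread from 0 to above 7 on this scale.

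Axons were compared with soma in control cultures for the 9 genes other than Selenow. Gpx4 was higher in axons and 6 genes did not pass the test. Selenop and Selenot entered the test through their soma libraries, so they had to differ and are given as values with no test. Of all 14728 genes tested 35.3% were called, 0.856% higher and 34.4% lower. The mean of Gpx4 was 519.95 ± 118 CPM in axons (SD, n = 5) and 205 ± 23.8 CPM in soma (SD, n = 6), which gave 1.08 as log2 fold change (SE 0.26) with a Benjamini-Hochberg adjusted p of 0.0057 from the quasi-likelihood test of edgeR, higher in 5 of 5 axonal libraries than in any soma library. With no filter on low counts the adjusted p of Gpx4 was 0.184. Selenop, at 0 in all 5 axonal libraries, was at least 222-fold lower there, computed as the soma mean of 28.3 CPM over the mean floor of 3 counts per axonal library, 0.127 CPM. Selenot had means of 0.105 ± 0.222 CPM in axons (SD, n = 5) and 39.4 ± 4.28 in soma (SD, n = 6). The 6 that did not pass had fitted log2 fold changes from -0.19 (Txnrd1, SE 1.66) to 0.93 (Gpx1, SE 0.49, edgeR adjusted p = 0.222, and 0.039 by DESeq2). The median over all genes tested, which include genes that entered through soma libraries alone, was -1.40 with scaling by the trimmed mean of M-values (TMM). It was -1.27 with total counts only. Gpx4 had all axonal values above all soma values, which 0.978% of all genes tested had. So did Selenow, but it was chosen for its axonal counts, so the share is no background for it. Selenop and Selenot had all axonal values below, which 40.6% had, but they entered through soma and had to differ. The summed neuron markers were lower in all 5 axonal than in all 6 soma libraries here, and the astrocyte sums had medians of 17035 CPM in axons and 7798 CPM in soma with ranges that overlapped. Most of the astrocyte sum was Gfap, with medians of 15093 CPM in axons and 6069 CPM in soma. Slc1a3 also had a higher median in axons, whereas Aqp4, Aldh1l1, Slc1a2, S100b, Sox9 and Gja1 had lower ones. The part of these markers was not tested.

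In stretched cultures Txnrd1 was higher in axons and no other member given with a test passed. Txnrd1 was at 372 ± 177 CPM in axons and 68.5 ± 22.9 CPM in soma (SD, n = 6 each) and differed by 1.90 on the log2 scale (SE 0.47, edgeR adjusted p = 0.0061), although axonal library 8, at 75.6 CPM, lay within the soma range. The share called over all 14466 genes tested was 29.3%, with 0.843% higher and 28.4% lower. Selenos (log2 fold change 1.09, SE 0.40, edgeR adjusted p = 0.063), Gpx4 (0.77, SE 0.31, adjusted p = 0.093) and Selenok (0.58, SE 0.25, adjusted p = 0.131) did not pass. The axonal CPM of these 3 nevertheless lay above all soma CPM, which held for 1.35% of all genes tested. That of Selenow did too, but Selenow was chosen for its axonal counts. None of the 10 had all axonal values below all soma values, which 34.6% had. All 3 passed with total counts only, with log2 fold changes of 1.62, 1.26 and 1.04 and edgeR adjusted p-values of 0.0083, 0.0047 and 0.0016, a scaling that moved the median of all genes from -1.13 to -0.73, and all 3 passed with DESeq2. Among fits leaving out 1 library, Selenos passed without stretched axon 2, 5 or 8, Gpx4 without stretched axon 1 or 6, and Selenok without stretched axon 1 or 2. Selenop and Selenot had fitted values of 1.01 (SE 2.14) and 0.04 (SE 1.90) in stretched cultures, each from 3 axonal libraries with a count, and are given with no test. Whether the control and stretched differences between axon and soma were unequal was not tested.

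The stretch difference within axons was the contrast that chose the set, so it is described without a test. The mean of Selenow in stretched axons was 0.509 of that in control axons, and the difference of means of log2(CPM + 1) was -0.99. Stretched library 2, at 4834 CPM, lay within the control range and the other 5 lay below all control libraries. Without that library the difference was -1.21, and over the same-numbered libraries alone, 1, 2 and 5 of each group, it was -0.39. Selenom and Gpx4 means were 0.532 and 0.709 of the control means, Selenof and Gpx1 0.871 and 0.976, and Selenok 1.29. The ratio for Selenos was 1.22 between means and 2.33 between medians, and 3.02 between means without control library 1, which held 722 CPM. Txnrd1 had a ratio of means of 6.46, with control libraries of 202 and 77.9 CPM overlapping the stretched range, and of 17.4 without the control library at 202 CPM. No member had groups that did not overlap, which 0.101% of all 4947 genes tested had in the higher and 0.222% in the lower direction. In the fit over all genes edgeR called 0 genes (0.0%) at an adjusted p under 0.05, with 46 at an unadjusted p under 0.05, and no other tool was run there. Of the 10 genes 8 passed the filter on low counts in that fit, all but Selenop and Selenot. The summed astrocyte markers moved with Selenow here, with medians of 17035 CPM in control and 7248 CPM in stretched axons and ranges that overlapped. Most of that sum was Gfap, with medians of 15093 and 5246 CPM. Slc1a3, Aqp4 and Slc1a2 also had lower medians in stretched axons, whereas Sox9, Gja1, Aldh1l1 and S100b had higher ones. The sum of somatodendritic or nuclear RNA markers had medians of 1615 CPM (1009 to 2785) in control and 1027 CPM (543 to 2924) in stretched axons, and that of fibroblast or vascular markers 162 CPM (106 to 386) and 435 CPM (0 to 1110). The part of these 3 lists was not tested.

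The set was drawn up on axonal levels of Selenow, but with earlier results of these data known. The soma test of Selenow may therefore not be independent of that choice. All 10 genes passed the filter on low counts and were tested. Gpx1, Selenos, Gpx4 and Selenow were lower in stretched soma and Selenot was higher, so that 5 of 10 passed, beside 25.1% of all 15632 genes tested (13.9% lower and 11.2% higher). The 2 peroxidases fell by 0.82 (Gpx1, SE 0.18, edgeR adjusted p = 0.0089) and 0.45 (Gpx4, SE 0.092, edgeR adjusted p = 0.0062) on the log2 scale. Their means were 104 ± 26.4 and 60.9 ± 14.7 CPM for Gpx1 and 205 ± 23.8 and 155 ± 13.1 CPM for Gpx4 in control and stretched soma (SD, n = 6 each). Gpx4 was the one member whose groups did not overlap, with 165.42 CPM as the lowest control and 165.26 CPM as the highest stretched value, as did 2.27% of all genes tested in the lower and 1.84% in the higher direction. Selenos fell by 0.49 (SE 0.11, edgeR adjusted p = 0.0094), from 116 ± 18.9 to 85.4 ± 7.61 CPM. Selenow fell by 0.29 (SE 0.081, edgeR adjusted p = 0.019), from a mean of 1322 to 1111 CPM. Selenot rose by 0.31 (SE 0.10, edgeR adjusted p = 0.038), from 39.4 ± 4.28 to 50.2 ± 6.60 CPM.

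The 5 members that did not pass in soma were Selenop (log2 fold change -0.34, SE 0.22, edgeR adjusted p = 0.267), Selenom (-0.22, SE 0.098, adjusted p = 0.101), Selenok (-0.18, SE 0.091, adjusted p = 0.158), Selenof (-0.10, SE 0.076, adjusted p = 0.350) and Txnrd1 (0.17, SE 0.20, adjusted p = 0.569). The median log2 fold change of the 10 genes was -0.26, against -0.03 over all genes tested. Control soma library 4 had the lowest control values of Gpx1, Gpx4, Selenos, Selenow, Selenom and Selenop. Without it, the log2 fold changes of Gpx1, Gpx4, Selenos and Selenow were -0.93, -0.52, -0.57 and -0.34, and Selenom also passed (-0.28, edgeR adjusted p = 0.028). The call of Selenot was the least stable: it was lost in 8 of the 12 fits that left out 1 library, with edgeR adjusted p-values from 0.053 to 0.089 in those, and with no filter on low counts (0.055). The 4 lower calls were kept in all 12.

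Some marker levels also differed between the soma groups. The summed microglia markers were at 38.1 to 75.7 CPM in control and 27.9 to 35.9 CPM in stretched soma, with no overlap. Oligodendrocyte lineage markers had medians of 65.8 CPM (38.4 to 71.2) and 39.0 CPM (35.3 to 53.1). The summed somatodendritic or nuclear RNA markers had medians of 1969 CPM (1690 to 2663.5) and 1386 CPM (1133.5 to 1871). In that list the nuclear RNA Malat1 had medians of 985 CPM (851 to 1624) and 555 CPM (311 to 873). Meg3 and Camk2a also had lower medians in stretched soma, whereas Shank1 and Ddn had higher ones and Snhg11 was at 61.3 and 61.0 CPM. The astrocyte sums had medians of 7798 and 7969 CPM and the neuron sums of 6213 and 5841 CPM, with ranges that overlapped. The part of these in the differences of the 10 genes and of the lists below was not tested.

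Transcript length moved with these differences. By their longest annotated transcript, the 4 genes called lower were the 4 shortest of the set: Selenow with 736 bases, Gpx4 with 995, Gpx1 with 1072 and Selenos with 1191. By the coding transcript, Selenom with 707 bases would be the shortest, and it did not pass. Selenot and Txnrd1, whose fitted values were positive, were the longest, with 3157 and 3622 bases. Over the 10 genes Spearman's rho between length and the soma log2 fold change was 0.770, over all 20 selenoproteins tested it was 0.704, and over all 15619 tested genes with a length it was 0.457. These are descriptions across genes, which share the 12 libraries and are not independent. Genes of up to 1200 bases had a median log2 fold change of -0.38 and 31.1% of them were called lower, whereas genes of over 4800 bases had a median of 0.24 and 4.04% called lower. With offsets for transcript length and GC content in the edgeR fit, which called 15.8% of all genes (9.92% lower and 5.92% higher), 1 of the 10 passed. It was Gpx1, at -0.47 (SE 0.14, adjusted p = 0.038). Selenos was at -0.26 (adjusted p = 0.051), Gpx4 at -0.05 (0.629), Selenot at 0.18 (0.203) and Selenow at 0.04 (0.680), the last with the sign turned. An effect of stretch on short transcripts and a difference in how libraries recovered short transcripts cannot be told apart here.

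**Figure D4:**
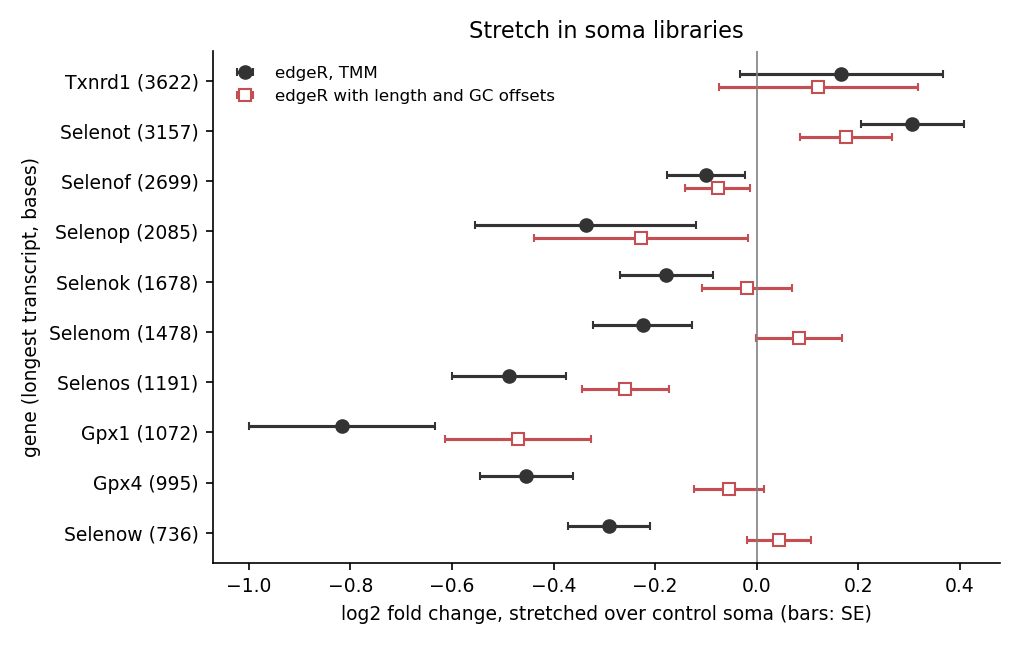
Log2 fold change of the 10 genes between stretched and control soma with its standard error, from edgeR with TMM scaling (filled circles) and with offsets for transcript length and GC content (open squares), ordered by longest transcript. By that length the 4 shortest genes lie from -0.82 to -0.29 without offsets, and Gpx4 and Selenow lie at -0.05 and 0.04 with them.

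The soma libraries also fell into 2 sets by their counts of Eif2s3y, a gene of the Y chromosome, with 24.7 to 28.7 CPM in 6 libraries and 5.39 to 13.2 CPM in the other 6, with 3 control and 3 stretched libraries in each. The higher set held control soma 1, 2 and 3 and stretched soma 1, 2 and 8. The lower set held the libraries numbered 4, 5 and 6 of both groups. With the Eif2s3y set as a covariate the same 5 members passed. Within the higher set, the log2 fold changes of Gpx1, Gpx4, Selenos and Selenow were -0.76, -0.44, -0.57 and -0.35, and all 4 passed with edgeR adjusted p-values of 0.0022, 0.0037, 0.0068 and 0.012. Within the lower set they were -0.82, -0.40, -0.34 and -0.17, with adjusted p-values of 0.272, 0.272, 0.299 and 0.422. In that set edgeR called 0 of 15718 genes, with 2739 at an unadjusted p under 0.05. Selenot was at 0.27 and 0.39 in the higher and lower sets and passed in neither. Txnrd1 went opposite ways, 0.67 (SE 0.21, edgeR adjusted p = 0.044) in the higher and -0.30 (SE 0.22) in the lower set. The difference between the sets, 0.91 for Txnrd1, did not pass for any member over all genes (adjusted p = 0.629 for Txnrd1 by an edgeR interaction term).

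Among the other 14 selenoproteins, 10 were tested in soma, of which 1 was higher and 3 were lower in the stretched group (2 to 4 lower leaving out 1 library), with a median log2 fold change of -0.01 (all genes tested, -0.03). The shares over all genes tested, 11.2% higher and 13.9% lower, stand beside this and the following counts in soma, and 5.92% and 9.92% beside those with the offsets. Selenoh fell by 0.62 (SE 0.11, edgeR adjusted p = 0.0044), from 93.2 ± 15.5 to 62.3 ± 4.43 CPM. Selenoo, a mitochondrial enzyme that attaches AMP to proteins, fell by 1.81 (SE 0.40, adjusted p = 0.0093), from 16.4 ± 8.61 to 4.84 ± 2.12 CPM. The secreted peroxidase Gpx3 fell by 0.93 (SE 0.31, adjusted p = 0.041), a call lost in 9 of 12 fits leaving out 1 library. Selenoi, which makes phosphatidylethanolamine, rose by 0.60 (SE 0.17, adjusted p = 0.019). Selenoh and Selenoo also passed with the length and GC offsets, at -0.33 (adjusted p = 0.016) and -1.66 (0.016), and Gpx3 and Selenoi did not, at -0.62 (0.139) and 0.34 (0.058). Of the peroxidases that use cysteine in place of selenocysteine, both tested were lower, with log2 fold changes of -0.87 for Gpx7 (SE 0.23, adjusted p = 0.015) and -0.57 for Gpx8 (SE 0.15, adjusted p = 0.014), and neither passed with the offsets (0.065 and 0.056).

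The 9 genes that make, deliver and decode selenocysteine were all tested in soma, with a median of -0.13. Sephs1, a homologue of selenophosphate synthetase, was higher (log2 fold change 0.52, SE 0.13, edgeR adjusted p = 0.012). Pstk, the kinase that acts on the serine-charged transfer RNA (-0.46, SE 0.13, adjusted p = 0.018), and Trnau1ap, which binds that transfer RNA (-0.31, SE 0.093, adjusted p = 0.026), were lower. The other 6, which include the SECIS-binding protein gene Secisbp2 and the Selenop receptor gene Lrp8, did not pass. With the offsets 1 of 9 was higher and 2 were lower, and of the 3 named genes Pstk was among those, at -0.78 (adjusted p = 0.0087). With no filter on low counts Gpx3, Pstk and Trnau1ap did not pass (edgeR adjusted p = 0.150, 0.067 and 0.119). Leaving out 1 library gave 1 to 4 higher and 1 to 3 lower, and Trnau1ap was lost without control soma 1 or 5 or stretched soma 5 or 6.

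Of 16 genes of the glutathione system, 2 were higher and 8 lower in stretched soma (median -0.32), and with the offsets 0 were higher and 5 lower. Leaving out 1 library gave 0 to 2 higher, with 0 in 7 of the 12 fits, and 4 to 8 lower, the fewest without control soma 5 or 6. Gclm, the regulatory subunit of the enzyme that starts glutathione synthesis, fell by 1.02 (SE 0.23, edgeR adjusted p = 0.0085) and by 1.33 with the offsets (adjusted p = 0.0073). Gstp1, a glutathione transferase, fell by 0.60 (SE 0.11, adjusted p = 0.0046) and was at -0.28 with the offsets (adjusted p = 0.042). Glrx5, a mitochondrial glutaredoxin, fell by 1.53 (SE 0.49, adjusted p = 0.037) and did not pass with the offsets (0.068), with no filter (0.131) or in 8 of 12 fits leaving out 1 library. The cystine carrier gene Slc7a11 (0.52, SE 0.18, adjusted p = 0.048) and Glrx2 (0.27, SE 0.090, adjusted p = 0.039) were higher, neither passed with the offsets (0.408 and 0.303), and the 2 calls were lost in 9 and 8 of the 12 fits leaving out 1 library.

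Of 13 genes of the thioredoxin and peroxiredoxin system, 0 were higher and 6 lower in stretched soma (median -0.31), a count that was 0 and 6 with the offsets as well, 0 and 5 to 7 leaving out 1 library, and 0 and 3 with the replicate block and the offsets. The mitochondrial thioredoxin gene Txn2 fell by 0.64 (SE 0.13, edgeR adjusted p = 0.0065), and the peroxiredoxin genes Prdx4 and Prdx5 fell by 0.63 (SE 0.14, adjusted p = 0.0092) and 0.51 (SE 0.090, adjusted p = 0.0043). Of the transcription factor gene Nfe2l2 with its inhibitor and targets, 7 genes in all with a median of -0.33, 3 were lower and none was higher (2 to 5 lower leaving out 1 library). They were the heme oxygenase gene Hmox1 (-0.69, SE 0.12, adjusted p = 0.0041), Taldo1 of the pentose phosphate pathway (-0.52, SE 0.087, adjusted p = 0.0036) and Keap1, the inhibitor (-0.33, SE 0.094, adjusted p = 0.020). With the offsets Txn2, Prdx4, Prdx5, Hmox1, Taldo1 and Keap1 also passed, with log2 fold changes of -0.41, -0.39, -0.24, -0.41, -0.23 and -0.29. Keap1 did not pass with no filter on low counts (edgeR adjusted p = 0.056) or without control soma 5 (0.070). Of 9 matched partners of selenoproteins in the endoplasmic reticulum, 3 were higher and 0 lower (median 0.23): Sel1l (0.50, SE 0.12, adjusted p = 0.012), the Selenof partner Uggt1 (0.42, SE 0.13, adjusted p = 0.029) and the derlin gene Derl2 (0.37, SE 0.092, adjusted p = 0.012). With the offsets Sel1l alone of the 9 passed, at 0.28 (adjusted p = 0.036). Leaving out 1 library gave 2 to 4 higher and 0 to 2 lower, and Uggt1 was lost in 6 of the 12 fits. Of all genes of over 4800 bases 23.1% were called higher.

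Against soma, the genes of these lists that were higher in axons belonged to the glutathione and thioredoxin systems. In control cultures 2 of 16 glutathione and 1 of 13 thioredoxin genes were higher, beside 0.856% of all genes tested, and in stretched cultures 1 and 2, beside 0.843%. Leaving out 1 library gave 0 to 2 glutathione and 1 to 2 thioredoxin genes in control cultures, with 0 glutathione genes without control axon 3 or control soma 4, 5 or 6, and 1 to 4 and 2 in stretched ones. Counts of lower genes are not given, because a gene could enter the test through soma libraries alone. The median log2 fold changes of the glutathione list were 0.34 in control and 0.74 in stretched cultures and those of the thioredoxin list 0.01 and -0.02. Over all genes tested they were -1.40 and -1.13, but these medians include genes that entered through soma libraries alone. All genes were not matched to the lists by soma level, either for these medians or for the shares of higher genes. Prdx1, a cytosolic peroxiredoxin, averaged 1598 ± 424 CPM over the control axon libraries (SD, n = 5) and 603 ± 57.5 CPM over control soma (SD, n = 6), a log2 difference of 1.14 (SE 0.17, edgeR adjusted p = 1.1e-04), and differed by 1.32 (SE 0.29, adjusted p = 0.0034) in stretched cultures. Gstm1, a glutathione transferase, was higher by 1.68 (SE 0.51, adjusted p = 0.022) in control and by 1.93 (SE 0.35, adjusted p = 7.2e-04) in stretched cultures. Gsta4 was higher in control cultures (1.501, SE 0.51, adjusted p = 0.039) and Txn1, the cytosolic substrate of Txnrd1, in stretched ones (1.09, SE 0.27, adjusted p = 0.0066). With no filter on low counts Gstm1, Gsta4 and Prdx1 in control cultures and Txn1 in stretched cultures did not pass (edgeR adjusted p = 0.087, 0.134, 0.110 and 0.103). With the replicate block Gsta4 in control cultures (edgeR adjusted p = 0.652) and Prdx1 and Txn1 in stretched cultures (0.069 and 0.528) did not pass. Leaving out 1 library, Gsta4 and Gstm1 in control cultures were lost in 8 and 5 of 11 fits. The next 4 genes entered through their soma libraries and are given as values with no test. Txnrd2, the mitochondrial reductase, was at 0 in all 5 control axon libraries against 22.7 ± 2.04 CPM in control soma (SD, n = 6), and Uggt1 at 0 in the same libraries against 48.7 ± 12.8 CPM. In stretched axons Gpx3 had 1 library with a count, at 0.0417 CPM, against 21.5 ± 7.26 CPM in soma, and the ubiquitin ligase gene Syvn1 had 1 library above the floor, at 1.04 CPM, against 97.3 ± 6.77 CPM in soma.

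Across the 12 soma libraries the 5 genes whose log2(CPM + 1) followed Selenow most closely, among 9528 genes averaging 10 CPM or more, were Mrps10 (Pearson's r = 0.966), Mrpl58 (0.958), Ndufb7 (0.956), Ndufaf8 (0.952) and Ndufa13 (0.947). Mrps10 and Mrpl58 encode proteins of the mitochondrial ribosome, Ndufb7 and Ndufa13 subunits of complex I, and Ndufaf8 a complex I assembly factor. All 5 were lower in stretched soma by 0.39 to 0.56 on the log2 scale. They were chosen for following Selenow over libraries in which it fell, so this direction is not a separate result. The 13.9% of all genes tested that were called lower is therefore no background for them. The values are given as a description: the libraries share the group difference and their depth, and with deviations from the group means the 5 correlations were between 0.889 and 0.940. Of the members, Gpx4 (0.847), Selenos (0.820), Selenom (0.787) and Gpx1 (0.730) followed Selenow, Selenof (0.402), Selenok (0.280) and Selenop (0.239) followed it weakly, and Txnrd1 (-0.436) and Selenot (-0.649) went the other way.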

How the data were processed

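The authors deposited 23 tables, 1 per library, of raw read counts for each Ensembl gene ID. Per the labels' protocols, amplified cDNA from poly(A) RNA was sequenced as read pairs with unique molecular identifiers. The submitters' processing notes name fastp 0.20.1, STAR 2.7.08a, HTSeq 0.13.5, FastQC 0.11.9, MultiQC 1.12 and mm10. The annotation, the strand setting and the use of the identifiers are not given in the sources used here. Reads with no gene, ambiguous reads and reads placed at more than 1 site made up 3.18% to 7.94%, 4.37% to 5.94% and 5.43% to 13.4% of each table and were left out.

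Symbols, lengths and sequences came from GENCODE vM21 (GRCm38), which held 55141 of the 55487 IDs. Comparisons used edgeR 4.0.16 in R 4.3.3 (filterByExpr, TMM, robust quasi-likelihood F test) on the libraries of the 2 groups, with Benjamini-Hochberg adjustment over all genes tested and a threshold of 0.05. The scripts were tested on simulated counts. The SE is the log2 fold change divided by the square root of F. Length and GC offsets were smooths fitted with mgcv 1.9.3, and DESeq2 1.42.0 was an alternative. The SD is over libraries. Similar transcripts were searched with BLAST+ 2.17.0 (at least 95% identity over 100 bases).

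The members and lists were chosen with earlier results of these data known. All 10 members are named in every comparison. Of each other list, genes with an adjusted p under 0.05 and a mean of at least 10 CPM are named, at most 3 with the highest and 3 with the lowest log2 fold change, and so are the 5 genes most like Selenow. The fits on the Eif2s3y sets, without both soma libraries numbered 4, with offsets but without control soma 4 and on shared numbers without a block were added after seeing the data.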

Additional observations from a re-analysis of the deposited data

Results flagged for a closer look

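The 5 values below stood far from the other libraries of their group by Dixon's criterion, among 39 groups of 5 or 6 libraries checked. Chance marks about 1 in 20 groups. Selenow was at 4834 CPM in stretched axon library 2, and the next value in that group was 2439 CPM. Selenom was at 465 CPM in control axon library 7, with 184 CPM next. Selenop was at 48.7 CPM in control soma library 2, with 28.4 CPM next. Selenos was at 99.7 CPM in stretched soma library 4, with 85.8 CPM next. Selenot was at 0.501 CPM in control axon library 1, which is 9 counts, with 0.0232 CPM next.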

How the results depend on the processing

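For stretch in soma, 5 of the 10 genes passed and 3929 of all genes. The count of members was 3 with the replicate block, 3 on the same shared numbers without the block, 1 with length and GC offsets, 1 with the block and the offsets together, 2 with the offsets and without control soma 4, and 0 within the lower Eif2s3y set. The count of all genes was 2475 with the offsets, 2066 with block and offsets, 0 within the lower Eif2s3y set and 6072 without control soma 4. Leaving out 1 library gave 4 to 6 members and 2666 to 6072 genes. The fitted value of Selenow turned to 0.044 with the offsets, to 0.063 with block and offsets and to 0.0496 with the offsets and without control soma 4. For axon against soma, the control comparison called 10714 genes with no filter and 4542 to 8151 leaving out 1 library, the highest without control axon 5. Gpx4 passed in the latter fits and not with no filter. The stretched comparison called 4 members with total counts only, 4 with DESeq2, 0 with the replicate block and 1 to 3 leaving out 1 library. Its count of all genes was 10931 with no filter, 7687 with the block and 4174 to 6499 leaving out 1 library, the highest without stretched axon 8. For Selenow between stretched and control axons, the difference of mean log2(CPM + 1) was -0.39 over same-numbered libraries and -1.21 to -0.84 leaving out 1 library. The cause of these changes was not tested, except that fewer libraries enter the shared-number fits.

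The numbers shared between groups come from the sample titles. The correlation of deviations between same-numbered libraries was 0.075 to 0.285 in soma (mean 0.211, against -0.034 for other numbers), 0.026 to 0.070 for control axon and soma, -0.021 to 0.027 for stretched axon and soma and 0.032 to 0.046 for axons. In no comparison was every pair over 0.1, the minimum set, so the numbers are not taken to pair libraries. Same-numbered soma libraries did lie in the same Eif2s3y set, and whether they share an origin was not tested. With the block, Selenow (edgeR adjusted p = 0.070) and Selenot (0.114) did not pass in soma, nor did Gpx4 (0.483) in control and Txnrd1 (0.370) in stretched axon against soma. Of the named list genes in soma, Selenoo (0.055), Glrx5 (0.120), Trnau1ap (0.099) and Keap1 (0.090) did not pass with the block. Among these Selenoo alone passed on the shared numbers without the block (0.023).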
